A study of Mus musculus with 8 samples.

Results

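The ISG15 system and a set of other antiviral effector genes were followed in neutrophils from mice bearing B16 tumors, a mouse melanoma line. The 10 genes were Isg15, Usp18, Herc6, Rtp4, Bst2, Xaf1, Ifi44, Ifi35, Parp14 and Trim30a. They were chosen by function, with earlier results of these data known, and matched by symbol. Each was present among the 18187 gene symbols of the deposited table. The study compared 3 libraries with the treatment label aOX40 (replicates 1 to 3) with 5 libraries labelled IgG (replicates 2 to 6), by bulk RNA sequencing. OX40 is a costimulatory receptor of activated T cells, and IgG, immunoglobulin G, is the label of the comparison group. All 8 libraries share the B16 label and the neutrophil label. The labels used here do not state the strain, age or sex of the mice, the dose and timing of treatment or the isolation of the cells. Nor do they state whether a library is 1 animal or a pool, so a p-value below reflects library-to-library spread that may be technical.

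Interferons bind receptors at the cell surface and switch on a large set of genes, many of whose products limit viral growth. ISG15, a ubiquitin-like protein, is one of these products. It is attached to other proteins by an enzyme cascade of UBA7, UBE2L6 and, in the mouse, the ligase HERC6, and it is removed by the protease USP18, which also binds the receptor chain IFNAR2 and damps further signalling. Secreted ISG15 binds the integrin LFA-1.

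Total counts ran between 69629957 and 73480484 per aOX40 library and between 52682208 and 63238045 per IgG library, without overlap (exact two-sided permutation p = 0.0357, the smallest possible with 3 libraries against 5). Levels below are CPM, counts per 1e6 counts of a library, scaled with TMM factors, which correct for differences in RNA composition and were 1.14 ± 0.11 in aOX40 (SD, n = 3) and 0.93 ± 0.05 in IgG (SD, n = 5). The 11 neutrophil markers summed to 17378 to 26809 CPM in aOX40 and 16730 to 29109 CPM in IgG (exact permutation p = 0.964), mostly as S100a8 and S100a9. The sum thus says little of the other markers, each of which overlapped between the groups. Mmp9 had 471, 1254 and 1225 CPM in aOX40, against 274 to 582 CPM in IgG. Camp had 170, 182 and 108 CPM in aOX40, against 78.1 to 544 CPM in IgG. Of markers of other cells, 10 of 11 listed for monocytes and macrophages were in the table and summed to 549 to 790 CPM in aOX40 and 376 to 726 CPM in IgG (exact permutation p = 0.179), mostly as Ly6c2. The macrophage markers among them stood apart without overlap: Adgre1 had 14.5, 26.8 and 23.6 CPM in aOX40 against 2.13 to 8.55 CPM in IgG, and Csf1r had 39.9, 38.0 and 75.6 CPM in aOX40 against 4.51 to 25.1 CPM in IgG. The sum of the 5 conventional dendritic cell markers in the table was lower, at 11.3 to 20.2 CPM in aOX40 and 22.5 to 41.0 CPM in IgG (exact permutation p = 0.0357). Most of it was Itgax, the only 1 of the 5 without overlap of the groups, while Flt3 and Zbtb46 were under 1 CPM in each library. The sum of the 3 endothelial and fibroblast markers in the table was also lower, at 4.45 to 8.02 CPM in aOX40 and 8.92 to 59.9 CPM in IgG (exact permutation p = 0.0357). It was mostly Pecam1 and Col1a1. Col1a1 alone was without overlap of the groups, while Pecam1 and Col3a1 overlapped. Markers of T and NK cells, of B cells and of melanoma cells summed to at most 4.02, 0.861 and 9.93 CPM in any library. Mitochondrial messenger RNA, which can follow RNA quality, made up 0.126 ± 0.026% of the aOX40 counts, against 0.064 ± 0.012% of the IgG counts (exact permutation p = 0.0357). The part of these differences in the results below was not tested. With each library thinned to the smallest total, the same 6 of the 10 genes passed as lower. Each of the 6 held at least 2915 counts in each library, so thinning could move them little, and it bears on counting depth alone.

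Most of the antiviral genes were lower in aOX40 neutrophils. Of the 10 genes, 9 passed the filter on low counts, and 6 of these were lower in aOX40 at an adjusted p below 0.05 in edgeR's quasi-likelihood test: Isg15, Herc6, Rtp4, Xaf1, Parp14 and Trim30a. None was higher. Usp18, Ifi35 and Bst2 did not pass, and Ifi44 was too scarce to test. Over all 13278 genes tested, 5.65% passed in either direction and 3.00% were called lower in aOX40, and 7.75% had all 3 aOX40 libraries below all 5 IgG libraries, as the same 6 genes did. The median log2 fold change (aOX40 over IgG) of the 9 tested genes was -1.10, beside 0.05 for all genes tested. Because the genes were chosen with earlier results of these data known, these figures stand side by side as a description only. With edgeR's older, legacy estimation of the spread, 3 of the 9 passed (Xaf1, Parp14 and Trim30a), beside 1.59% of all genes called lower. That estimation is the default of the edgeR version used, while the 6 calls above came from the newer one. DESeq2 called 7 of the 9 lower, beside 7.83% lower and 4.17% higher of the 12139 genes to which it gave an adjusted p, and limma voom called 6 lower, beside 2.93% lower and 2.52% higher of all genes. At an unadjusted p below 0.05, edgeR had 24.8% of all genes, in either direction. Without aOX40 replicate 2 edgeR called 0 genes in the whole table (2230 at an unadjusted p below 0.05, with 6 of the 9 among them and lower). With scaling by total counts alone, 5 of the 9 were lower, and 78.0% of calls over all genes were higher in aOX40, against 46.8% with TMM factors. In bulk libraries, fewer cells carrying a transcript and less transcript per cell cannot be told apart.

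**Figure D1:**
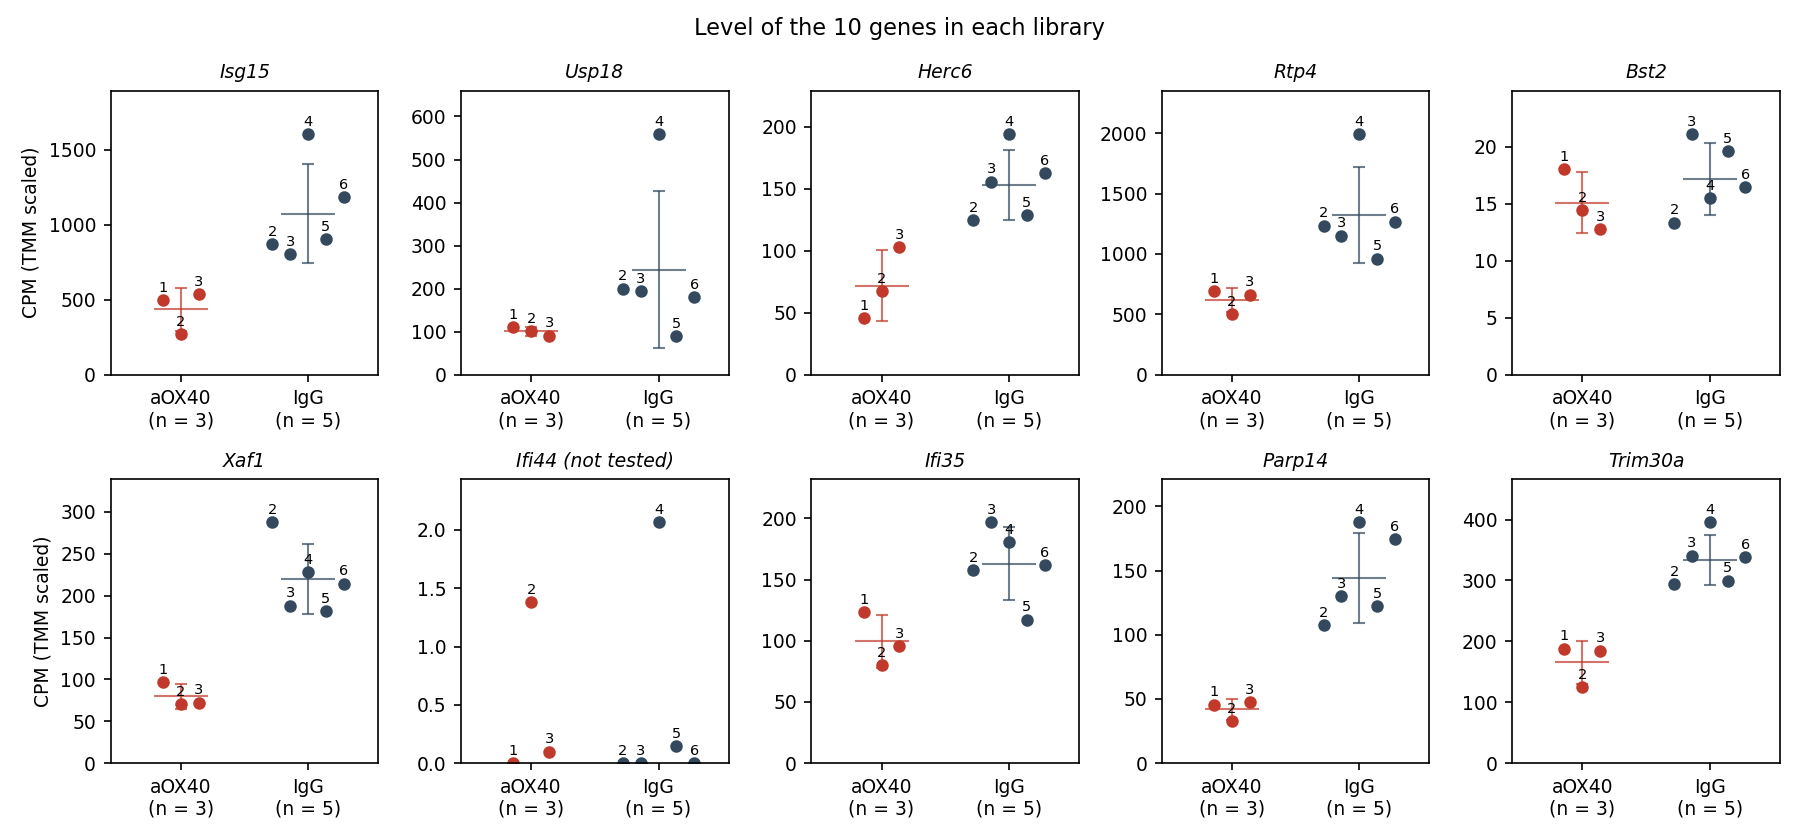
CPM (vertical axis, linear, from 0) of each of the 10 genes in the 3 aOX40 libraries (left, red) and the 5 IgG libraries (right, dark blue); points are libraries with their replicate number, and the bar and whiskers are the mean ± SD, drawn for the 9 tested genes. For Isg15, Herc6, Rtp4, Xaf1, Parp14 and Trim30a the highest aOX40 point lies below the lowest IgG point, while Usp18 has IgG replicate 4 at 560 CPM far above the other libraries.

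The genes lie on 7 chromosomes. On GRCm38, Isg15 occupies chromosome 4, 156199424 to 156200818, on the minus strand, and Usp18 (121245906 to 121270917) and Herc6 (57581000 to 57664632) both lie on the plus strand of chromosome 6. Rtp4 (23520291 to 23614222, plus strand) and Parp14 (35832874 to 35871544, minus strand) lie on chromosome 16, Xaf1 (72301629 to 72313733) and Ifi35 (101448407 to 101458698) on the plus strand of chromosome 11, Bst2 on chromosome 8 (71534255 to 71537456, minus strand), Trim30a on chromosome 7 (104409025 to 104465193, minus strand) and Ifi44 on chromosome 3 (151730922 to 151749960, minus strand). RefSeq promoter sequences (GRCm38.p6) were found for 7 of the 10 genes, and the 250 bases before each annotated start were searched on both strands for the core of the interferon-stimulated response element, where ISGF3 binds, and for the gamma-activated site of interferon gamma responses. The core was read as GAAA, any 2 bases and GAAA, and the site as TTC, any 3 bases and GAA. The response element core was present in 2.98% and the gamma-activated site in 7.02% of 32851 promoters. The core was found in Isg15 (3 overlapping matches), Bst2 (2 overlapping matches) and Trim30a (1 match, on the opposite strand, in one of its 2 annotated promoters and none in the other, chr7:104446126-104446375), and not in these windows of Herc6, Xaf1, Ifi44 or Ifi35. A gamma-activated site was found in Bst2 only, overlapping its response element core. The 3 promoter windows with a core are shown because Isg15 and Trim30a were lower in aOX40 while Bst2, with 2 matches, did not pass the test; they read 5′ to 3′ on the strand of the gene, with the response element cores in capitals.
Isg15, chr4:156200819-156201068, minus strand: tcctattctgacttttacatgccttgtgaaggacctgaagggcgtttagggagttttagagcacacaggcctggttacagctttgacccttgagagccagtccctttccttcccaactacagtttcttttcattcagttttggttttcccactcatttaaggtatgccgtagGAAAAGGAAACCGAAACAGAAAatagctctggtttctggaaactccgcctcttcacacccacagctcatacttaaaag
Trim30a, chr7:104465194-104465443, minus strand: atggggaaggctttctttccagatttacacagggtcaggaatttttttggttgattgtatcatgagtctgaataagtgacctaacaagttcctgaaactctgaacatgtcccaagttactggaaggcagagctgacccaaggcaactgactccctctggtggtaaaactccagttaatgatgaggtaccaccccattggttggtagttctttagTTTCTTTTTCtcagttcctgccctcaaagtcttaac
Bst2, chr8:71537473-71537722, minus strand: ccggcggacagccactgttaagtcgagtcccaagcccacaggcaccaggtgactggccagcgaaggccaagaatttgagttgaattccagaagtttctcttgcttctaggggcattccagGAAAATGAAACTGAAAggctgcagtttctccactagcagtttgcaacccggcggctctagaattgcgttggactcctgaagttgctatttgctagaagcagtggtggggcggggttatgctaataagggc
The Isg15 cores lie 78 to 57 bases before the start, the Trim30a core 36 to 27 bases and the Bst2 cores 130 to 115 bases before it. A match of these letters is a description and not a measured binding site.

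Isg15, the modifier itself, had 497, 270 and 538 CPM in aOX40 replicates 1, 2 and 3, against 871, 806, 1607, 905 and 1184 CPM in IgG replicates 2 to 6. The groups did not overlap, and aOX40 replicate 2 and IgG replicate 4 marked the ends. The aOX40 libraries averaged 435 ± 144 CPM (SD, n = 3) and the IgG libraries 1075 ± 331 CPM (SD, n = 5). In edgeR the log2 fold change was -1.30 with an SE of 0.30 and an adjusted p of 0.0361. The adjusted p was 0.0682 with the legacy estimation, and 0.0663, 0.158 and 0.0848 without aOX40 replicate 1, 2 or 3 and 0.0604 without IgG replicate 6. An annotated gene model without a gene name, not used here, matched Isg15 at 95.2% identity over 63.8% of its longest transcript, so some Isg15 reads could come from or be lost to it.

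Usp18, which removes ISG15 from its targets and restrains the interferon receptor, had 111, 101 and 90.8 CPM in aOX40 replicates 1 to 3, against 200, 194, 560, 89.0 and 180 CPM in IgG replicates 2 to 6. The aOX40 values lay close together, and IgG ran from a library below all of them to one far above the rest, so the groups overlapped. Its log2 fold change in edgeR was -1.28, near that of Isg15, but with a wider error (SE 0.49) and an adjusted p of 0.137, and it was -0.71 without IgG replicate 4 (adjusted p = 0.168). The log2 ratio of Usp18 to Isg15 CPM within a library averaged -2.05 ± 0.58 in aOX40 and -2.35 ± 0.70 in IgG, and the groups overlapped (exact two-sided permutation p = 0.536, compared after the values were seen).

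Herc6, the ligase that joins ISG15 to proteins in mouse cells, had 45.6, 67.4 and 103 CPM in aOX40 replicates 1 to 3, against 125, 156, 194, 129 and 162 CPM in IgG replicates 2 to 6. The groups did not overlap, but aOX40 replicate 3 came near the lowest IgG library, and the aOX40 libraries spread 2.25-fold. The log2 fold change in edgeR was -1.09 with an SE of 0.28 and an adjusted p of 0.0471. That call was the least firm of the 6: the adjusted p was 0.0818 with the legacy estimation, 0.0959 with scaling by total counts alone, 0.0722 with no filter, and 0.0526 to 0.204 when any 1 of the 8 libraries was left out. The gene model Gm45193 shares 1269 exon bases with Herc6 on the same strand and held 2426 counts over the 8 libraries, against 59286 for Herc6.

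Of 7 listed genes of ISG15 conjugation and its receptor, 0 were lower and 1 was higher in edgeR's test, beside 3.00% and 2.64% of all genes. At an unadjusted p below 0.05, 1 was lower and 2 were higher, a level that 24.8% of all genes reached. DESeq2 called 1 lower (Trim25) and 2 higher (Itgb2 and Ube2l6), beside 7.83% lower and 4.17% higher of the genes with an adjusted p. With limma voom those 2 were called higher and 0 lower, beside 2.52% higher and 2.93% lower of all genes. Ube2l6, the conjugating enzyme between UBA7 and the ligase, had 184, 213 and 193 CPM in aOX40, against 132, 147, 112, 114 and 112 CPM in IgG. All aOX40 libraries lay above all IgG libraries, opposite to Isg15, and the log2 fold change of 0.68 just missed edgeR's threshold, with an SE of 0.18 and an adjusted p of 0.0522. Uba7, the activating enzyme, stood at -0.52 on the log2 fold scale (adjusted p = 0.347, edgeR). Trim25, known as an ISG15 ligase in human cells, stood at -0.66 (adjusted p = 0.0683, edgeR) without overlap of the groups. Itgb2, the beta chain of LFA-1, was the gene called higher. It had 393, 686 and 771 CPM in aOX40, against 279, 341, 310, 251 and 291 CPM in IgG, a log2 fold change of 1.07 with an SE of 0.23 and an adjusted p of 0.0260 in edgeR. Its partner Itgal had overlapping groups and a log2 fold change of -0.05 (SE 0.35). The Itgb2 adjusted p was 0.136 and 0.104 without aOX40 replicate 2 or 3 and 0.0515 without IgG replicate 6.

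Rtp4 and Bst2 act outside the ISG15 cascade, and of this pair Rtp4 passed the test as lower and Bst2 did not; the difference between them was not tested. Rtp4, a transporter protein for receptors that has been reported to limit flavivirus replication, had 689, 503 and 664 CPM in aOX40 replicates 1 to 3, against 1235, 1153, 1995, 960 and 1268 CPM in IgG replicates 2 to 6. There was no overlap, and IgG replicate 4 was again the highest library. In edgeR the log2 fold change was -1.10, the SE 0.26 and the adjusted p 0.0360. The adjusted p was 0.0639 with the legacy estimation, 0.0640, 0.175 and 0.0988 without aOX40 replicate 1, 2 or 3, and 0.0503, 0.0527 and 0.0577 without IgG replicate 2, 3 or 6. Bst2, or tetherin, a membrane protein that holds budding virions at the cell surface, had 18.03, 14.4 and 12.7 CPM in aOX40, against 13.3, 21.1, 15.4, 19.6 and 16.4 CPM in IgG. The groups overlapped widely, and the log2 fold change of -0.19 was smaller than its SE of 0.26 (adjusted p = 0.688, edgeR), turning to 0.10 with scaling by total counts alone. That scaling put the median of all genes at 0.35, against 0.05 with TMM factors. Relative to the mean log2 CPM of the other 8 tested genes in the same library, Bst2 lay between -3.51 and -2.93 in aOX40 and between -4.78 and -3.55 in IgG, without overlap, a contrast chosen after the values were seen. Bst2 also marks plasmacytoid dendritic cells. The 3 other markers of that list found in the table summed to 0.22 to 6.56 CPM in aOX40 and 1.52 to 11.1 CPM in IgG (exact permutation p = 0.286), and their part in the Bst2 level was not tested.

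Xaf1, which antagonises the apoptosis inhibitor XIAP, had 96.4, 70.5 and 72.1 CPM in aOX40 replicates 1 to 3, against 288, 188, 228, 181 and 214 CPM in IgG replicates 2 to 6. The nearest libraries of the groups were well apart, and IgG replicate 2, not 4, was the highest. The log2 fold change in edgeR was -1.46, with an SE of 0.23 and an adjusted p of 0.0110 (0.0229 with the legacy estimation). The adjusted p was 0.0824 and 0.0555 without aOX40 replicate 2 or 3. Its partners were not called in edgeR's test: Xiap had a log2 fold change of 0.18 (SE 0.37), and the related inhibitors Birc2 and Birc3 had 0.49 (SE 0.25) and 0.39 (SE 0.21).

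Ifi35, a leucine zipper protein that binds NMI, had 123, 80.04 and 95.5 CPM in aOX40, against 158, 197, 181, 117 and 162 CPM in IgG. Overlap came from IgG replicate 5, which lay below aOX40 replicate 1. The log2 fold change was -0.71 with an SE of 0.23 and an adjusted p of 0.0917 in edgeR, while DESeq2 called it lower (adjusted p = 0.0194). Nmi had 73.1, 58.3 and 64.2 CPM in aOX40, against 127, 111, 135, 83.7 and 112 CPM in IgG, without overlap. Its log2 fold change of -0.80 (SE 0.21) just missed edgeR's threshold (adjusted p = 0.0530), and DESeq2 and limma voom called it lower. Of 11 listed relatives and binding partners of the 10 genes, Ifi44l and Ifi27l2b had no row in the table. Of the 9 tested, 0 passed in edgeR's test. At an unadjusted p below 0.05 there was 1, Nmi, beside 24.8% of all genes. The median log2 fold change of the 9 was -0.05.

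Ifi44, a cytoplasmic protein induced by interferon, was nearly absent as counted. It had 0, 123 and 8 counts in aOX40 replicates 1 to 3, and 0, 0, 111, 9 and 0 counts in IgG replicates 2 to 6. One library in each group held nearly all of its reads, IgG replicate 4 being also the highest for 6 of the other genes, and aOX40 replicate 2 being the lowest for 6. Its relative Ifi44l had no row in the deposited table.

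Parp14 had the largest fold change of the 9 tested genes. It is a mono-ADP-ribosyltransferase, first known as a cofactor of STAT6. It had 45.5, 32.7 and 47.5 CPM in aOX40 replicates 1 to 3, against 108, 130, 188, 122 and 175 CPM in IgG replicates 2 to 6, so that the highest aOX40 library had fewer than any IgG library. In edgeR the log2 fold change of -1.79 had an SE of 0.26 and an adjusted p of 0.00996 (0.0217 with the legacy estimation), and the adjusted p was 0.0722 without aOX40 replicate 2. Stat6 itself had a log2 fold change of 0.02 (SE 0.23). Of 6 other interferon-linked ADP-ribosyltransferases and partners, 0 passed in either direction in edgeR's test. At an unadjusted p below 0.05, 2 were lower, a level that 24.8% of all genes reached in either direction. DESeq2 called 2 lower, beside 7.83% of the genes with an adjusted p, and limma voom called 0. The log2 fold changes of all 6 were below 0, as were 47.8% of those of all genes tested, and their median was -0.60. The 2 called by DESeq2 were Parp9 and its ligase partner Dtx3l, which lie head to head beside Parp14 and overlap at their starts, so reads there may not be told apart. Their log2 fold changes were -0.86 (adjusted p = 0.0766) and -0.62 (adjusted p = 0.108) in edgeR, each without overlap of the groups.

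Trim30a, a tripartite motif protein that promotes loss of the signalling adaptors TAB2 and TAB3, had 188, 125 and 185 CPM in aOX40 replicates 1 to 3, against 294, 341, 395, 300 and 339 CPM in IgG replicates 2 to 6. IgG varied little here, 1.34-fold from lowest to highest, and the groups were far apart. In edgeR the log2 fold change was -1.01, with an SE of 0.21 and an adjusted p of 0.0248 (0.0384 with the legacy estimation). The adjusted p was 0.134 and 0.0766 without aOX40 replicate 2 or 3. Of 11 other tripartite motif genes, 2 were lower and 0 higher in edgeR's test, beside 3.00% lower and 2.64% higher of all genes tested. The median log2 fold change of the 11 was -0.46. Trim30c, the neighbouring paralog, had 6.09, 5.81 and 6.999 CPM in aOX40, against 38.5, 33.9, 46.6, 15.3 and 15.5 CPM in IgG. Its log2 fold change of -2.24 (SE 0.44) had an adjusted p of 0.0210 in edgeR, and one of 0.0578, 0.122 and 0.0832 without aOX40 replicate 1, 2 or 3. Trim56, an antiviral ubiquitin ligase, was called lower with overlapping groups, at -1.51 on the log2 fold scale (SE 0.39) and an adjusted p of 0.0469 in edgeR. It lost its call in 12 of the 18 alternative analyses, with an adjusted p of 0.200 without aOX40 replicate 2. Trim30c and Trim30d match the longest Trim30a transcript at 82.1% identity over 44.1% of it (Trim30c) and 83.4% over 53.1% (Trim30d), so a share of reads may be divided among these paralogs.

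**Figure D2:**
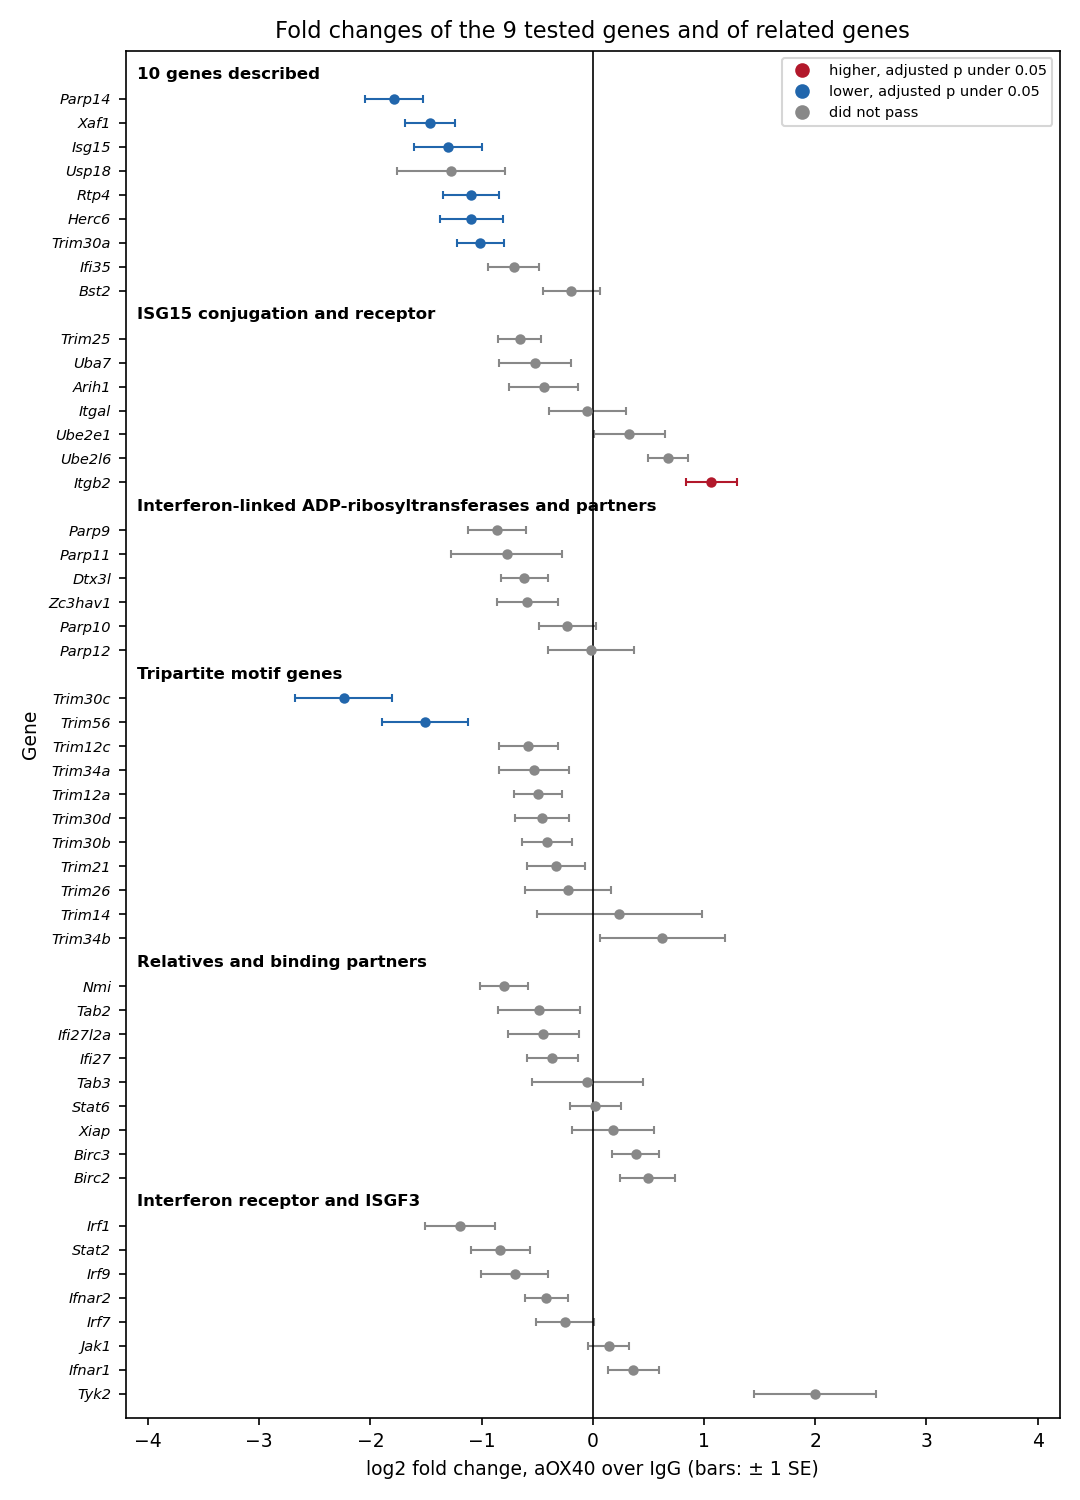
Log2 fold change of aOX40 over IgG (horizontal axis, bars ± 1 SE) for the 9 tested genes and the 41 genes of 5 related lists, ordered within each list; blue points were lower and red points higher at an adjusted p below 0.05, and grey points did not pass. All 9 genes lie left of 0, while the related lists hold 2 genes that were lower (Trim30c and Trim56) and 1 that was higher (Itgb2).

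Upstream of these genes, interferon signals pass through IFNAR1 and IFNAR2, the kinases JAK1 and TYK2, and the ISGF3 complex, which holds STAT2 and IRF9. The list of 8 held the genes of these proteins and also Irf7 and Irf1, which are not part of the receptor or ISGF3. Of the 8, 0 passed in either direction in edgeR's test (4 at an unadjusted p below 0.05, beside 24.8% of all genes). Among those 4, Tyk2 was above and Stat2, Irf9 and Irf1 were below IgG. DESeq2 called 2 of the 8 lower (Irf1 and Stat2), beside 7.83% of the genes with an adjusted p, and limma voom called 0. Tyk2 was scarce, with 16.1, 5.41 and 10.03 CPM in aOX40, against 0.103, 3.42, 3.01, 1.83 and 4.498 CPM in IgG. The groups did not overlap, and its log2 fold change of 2.00 (SE 0.55), above that of any other gene of the list, missed edgeR's threshold (adjusted p = 0.0580; 0.249 with the legacy estimation). Stat2 had 42.9 ± 16.2 CPM in aOX40, against 76.3 ± 11.5 CPM in IgG, at a log2 fold change of -0.83 (adjusted p = 0.0856, edgeR). Irf9 had 139 ± 7.10 CPM in aOX40, against 227 ± 98.6 CPM in IgG, at -0.70 (adjusted p = 0.182, edgeR). Irf1, a factor induced by both interferon types, had 503, 564 and 915 CPM in aOX40, against 1159, 1305, 2285, 1009 and 1801 CPM in IgG. These did not overlap, and the log2 fold change of -1.19 (SE 0.31) just missed edgeR's threshold (adjusted p = 0.0512). Stat2, Irf9 and Ifnar2 were also lower without overlap, Ifnar2 at a log2 fold change of -0.42 (adjusted p = 0.211, edgeR). Of the 8 genes, 4 were lower and 1 was higher without overlap, and over all 5 lists 9 of 41 were lower and 3 higher. Of all genes tested, 7.75% were lower without overlap, and the share that was higher was not counted. In edgeR's test, 2 of the 41 genes were called lower and 1 higher, beside 3.00% and 2.64% of all genes tested. A log2 fold change below 0 was found for 29 of the 41, beside 47.8% of all genes tested. The count of lower genes in these lists was 8 with DESeq2, which called 7.83% lower of the genes with an adjusted p, and 1 with the legacy estimation, which called 1.59% lower.

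Per kilobase of exon, the genes spanned a wide range of levels. In aOX40, Isg15 stood at 576 ± 191 CPM per kb (SD, n = 3), Rtp4 at 290 ± 47.4, Ifi35 at 57.7 ± 12.6, Trim30a at 40.3 ± 8.65, Usp18 at 36.2 ± 3.56, Xaf1 at 17.0 ± 3.10, Bst2 at 16.7 ± 2.98, Herc6 at 7.74 ± 3.10 and Parp14 at 4.50 ± 0.86 CPM per kb. Over the IgG libraries the order was Isg15 at 1421 ± 438 CPM per kb (SD, n = 5), Rtp4 at 621 ± 185, Ifi35 at 94.3 ± 17.3, Usp18 at 87.6 ± 65.2, Trim30a at 81.2 ± 9.89, Xaf1 at 46.9 ± 9.04, Bst2 at 19.0 ± 3.49, Herc6 at 16.5 ± 3.03 and Parp14 at 15.5 ± 3.74 CPM per kb. Ifi44 was last in both groups, below 0.34 CPM per kb in each library. Ranges of neighbours in this order overlapped for Trim30a with Usp18, Xaf1 with Bst2 and Herc6 with Parp14 in aOX40. In IgG they overlapped for Ifi35 with Usp18, Usp18 with Trim30a, Bst2 with Herc6 and Herc6 with Parp14. Xaf1 and Bst2 thus lay side by side in aOX40, while in IgG each Xaf1 value was above each Bst2 value.

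The same libraries often marked the ends of the range. IgG replicate 4 was the highest of the 8 libraries for 6 of the 9 tested genes, and aOX40 replicate 2 was the lowest for 6. Within IgG the lowest library varied, being replicate 2 for 4 genes, replicate 5 for 4 and replicate 3 for 1. The mean log2 CPM of the 9 genes was 6.83, 6.46 and 6.80 in aOX40 replicates 1 to 3, against 7.64, 7.75, 8.20, 7.45 and 7.81 in IgG replicates 2 to 6, and no aOX40 library reached an IgG library. Spread within IgG was widest for Usp18, 6.28-fold from lowest to highest library, and narrowest for Trim30a, 1.34-fold. Within aOX40 it was widest for Herc6, 2.25-fold, and narrowest for Usp18, 1.22-fold. Rtp4 and Trim30a followed the shared profile most closely, with root mean square differences of 0.10 and 0.12 log2 units from the mean profile over the 8 libraries, to which they themselves contribute. Bst2 was farthest from it, at 0.55, after Usp18 at 0.50.

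**Figure D3:**
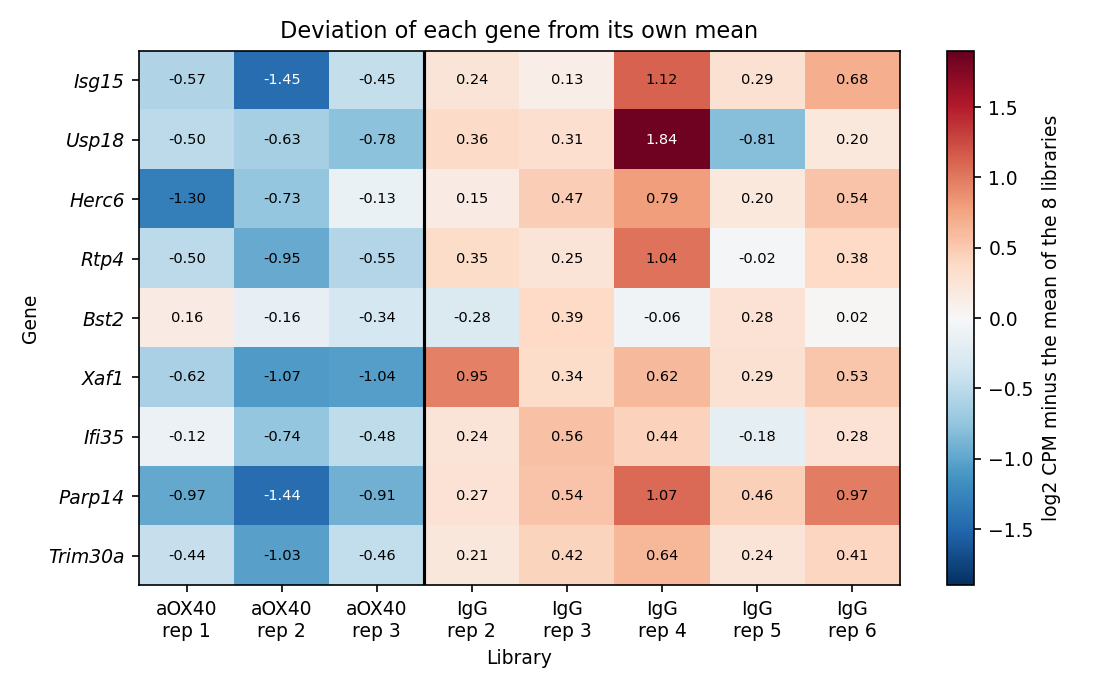
Log2 CPM of each of the 9 tested genes (rows) in each library (columns, aOX40 left of the line and IgG right of it) after subtracting that gene's mean over the 8 libraries; red is above the mean and blue is below it. Isg15, Herc6, Rtp4, Xaf1, Parp14 and Trim30a are below their mean in each aOX40 library and above it in each IgG library, except Rtp4 in IgG replicate 5 (-0.02); Usp18 and Ifi35 are low in IgG replicate 5, and Bst2 shows no split.

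Outside the 10 genes, the genes with the most similar profile over the 8 libraries were sought among the 4942 genes with a mean of at least 10 CPM, by the same root mean square difference. The closest 5 were Chd2, a chromatin remodeller, at a distance of 0.12 log2 units, Picalm, a clathrin assembly protein, at 0.13, Pank2, a pantothenate kinase of coenzyme A synthesis, at 0.15, Hcar2, a receptor for hydroxycarboxylic acids, at 0.16, and Slfn4, an interferon-induced schlafen gene of myeloid cells, at 0.16. Hcar2 had 4694 ± 655 CPM in aOX40 and 9290 ± 1091 CPM in IgG, and Chd2 had 68.0 ± 15.2 CPM in aOX40 and 134 ± 17.5 CPM in IgG. These 5 were picked for their likeness, so their difference between the groups is a description only.

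Of the 9 tested genes, those other than Bst2 kept a log2 fold change below 0 in each setting tried, while the calls varied. Ifi44, which could be tested in 3 of the alternatives, had log2 fold changes of 0.28 with no filter, 0.81 without aOX40 replicate 1 and 0.76 without aOX40 replicate 3, with adjusted p from 0.772 to 0.938 in edgeR. Over 18 alternative analyses, the log2 fold change ran from -1.88 to -1.49 for Parp14, from -1.71 to -1.16 for Xaf1, from -1.48 to -1.02 for Isg15, from -1.19 to -0.79 for Rtp4, from -1.43 to -0.74 for Herc6 and from -1.10 to -0.72 for Trim30a. Parp14 was called in 16 of the 18, Xaf1 and Trim30a in 15 each, Isg15 in 12, Rtp4 in 10 and Herc6 in 6. Usp18 was called in 0 of the 18, with an adjusted p of 0.0519 to 0.344, and Ifi35 in 1. For the 6 genes whose groups did not overlap, leaving out 1 library cannot turn the direction.

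**Figure D4:**
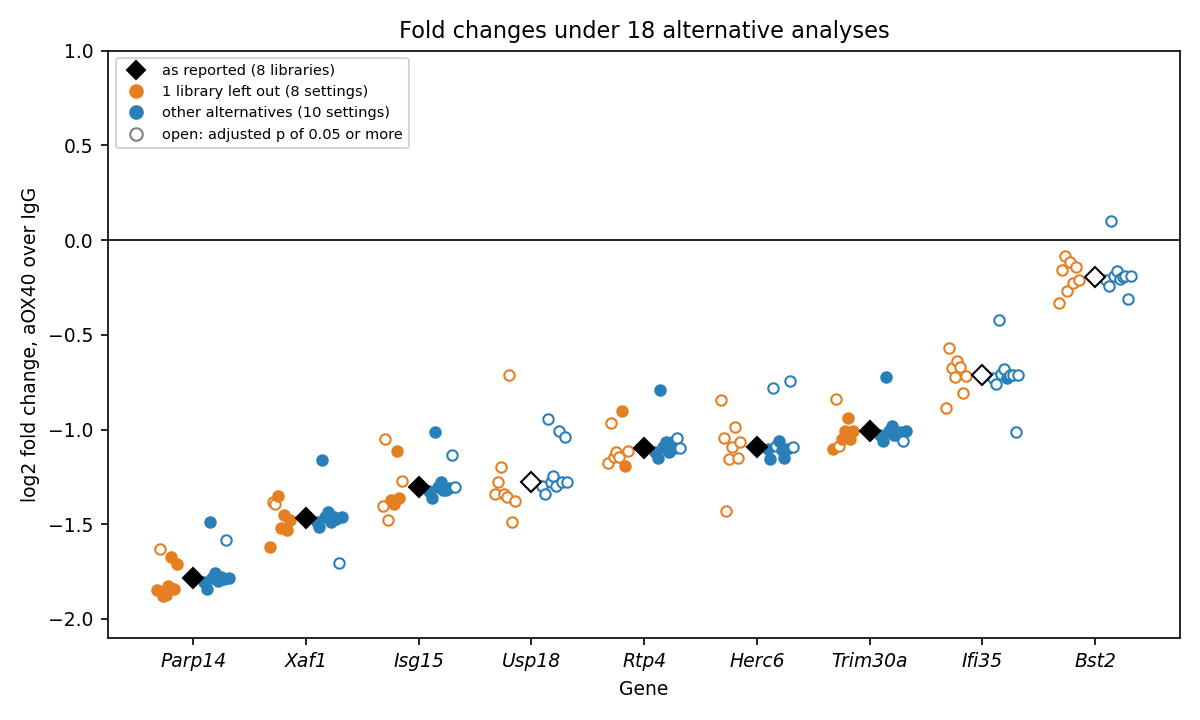
Log2 fold change of aOX40 over IgG (vertical axis) of the 9 tested genes as reported (black diamonds), with 1 library left out (orange, 8 settings) and under 10 other settings (blue); filled symbols had an adjusted p below 0.05 and open ones did not. Bst2 crosses 0 once, at 0.10 with scaling by total counts alone, and the other 8 genes stay below 0 in each setting.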

How the data were processed

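Gene expression was measured by bulk RNA sequencing in 8 neutrophil libraries, grouped by the treatment in the sample titles. The authors deposited estimated counts per gene symbol, not scaled between libraries; 63.4% of values were whole within 0.01. Per the submitters' processing notes, STAR 2.6.0, Subread and featureCounts 1.5.1 were used with build mm10. Settings, annotation and strandedness of the counting: not given in the sources used here. Reads of overlapping genes may therefore not be told apart. No row lacked a gene name.

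Rounding gave whole numbers; filterByExpr (by group), TMM factors and the quasi-likelihood test of edgeR 4.0.16 followed, under R 4.3.3 with limma 3.58.1. The model held the group alone, as in an earlier analysis of these data. The newer estimation of edgeR was used (legacy off), which is not the default of this version; it was chosen to follow that earlier analysis and calls more genes than the default, whose results stand beside it. P-values were adjusted by Benjamini-Hochberg over 13278 genes, with a threshold of 0.05. Standard errors came from the F statistic. CPM are TMM-scaled; log2 CPM used a prior count of 2. For single values per library, an exact permutation test (two-sided) ran over the 56 splits. The genes and lists were chosen with earlier results of these data known. The naming rule took all 10 genes, any gene of the 5 related lists and the 5 genes of most similar profile; Bst2's distance from the others and the ratio of Usp18 to Isg15 were looked at after seeing values. Positions and exon lengths came from GENCODE M21 (GRCm38, also called mm10), and near copies of the 10 genes from BLAST 2.17.0. Alternatives were 3 other scalings, 2 filters, DESeq2 1.42.0, limma voom, thinning to the smallest library, the replicate number as a block and each library left out; the legacy estimation was added after the data were seen. One listed gene is not reported here and was left out of the list counts. The fit was also run on simulated counts, and the outcome is not given here. Library totals were 52682208 to 73480484 counts; the labels name no molecular identifiers, and counting intervals were not used.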

Additional observations from a re-analysis of the deposited data

Results flagged for a closer look

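In 5 of 62 values tested within the 5 IgG libraries, 1 library stood farther from the rest than a 95% limit for outliers allows; chance alone does so in about 1 in 20 such groups. Usp18 had 560 CPM in IgG replicate 4, against 200 CPM in the next library, and Irf9 had 397 CPM in the same library, against 216 CPM. Parp10 was low in IgG replicate 5, at 162 CPM, with the next library at 236 CPM. The summed plasmacytoid dendritic cell markers, most of it Bst2, were low in IgG replicate 6, at 17.96 CPM against 23.6 CPM in the next. The summed T and NK cell markers were highest in IgG replicate 4, at 2.36 CPM against 1.42 CPM. Without IgG replicate 4, 5 of the 9 tested genes were lower in aOX40.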

How the results depend on the processing

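The count of the 9 tested genes called lower in aOX40 was 6 as reported, 5 to 7 under other scalings, filters, tools and depth, 3 with the legacy estimation, and 0 to 5 with 1 library left out (0 without aOX40 replicate 2, 1 without aOX40 replicate 3). The replicate number pairs the groups only in numbers 2 and 3, and the labels do not say that it marks a shared animal or day. With the replicate block, which leaves 1 residual degree of freedom, edgeR passed 0 genes, with 2594 under an unadjusted p of 0.05, and so 0 of the 9 genes and 0 of the related genes. Related genes called lower were 2 as reported, 4 with upper quartile factors, thinning or at least 10 counts in all libraries, 8 with DESeq2, 1 with total counts alone, no filter or the legacy estimation, and 0 to 3 with 1 library left out. Over all genes, 750 were called, 1457 with DESeq2, 452 with no filter, 320 with the legacy estimation and 0 to 589 with 1 library left out. With total counts alone 78.0% of calls were higher in aOX40 against 46.8% as reported, the median of all genes moved to 0.35, the median of the 9 genes was -0.79 and Bst2 turned to 0.10. The share of higher calls was 34.7% with DESeq2 and 34.1% with the legacy estimation. In the other settings the median of the 9 genes stayed between -1.20 and -0.94. The cause of these shifts was not tested. Ifi44, tested without a filter, had an adjusted p of 0.938.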
